A study of Homo sapiens with 6 samples.

Results

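The genes that encode the proteins of the cytosolic ribosome were compared between WM164 cells that carry an expression vector for HDAC8 and WM164 cells with an empty expression vector (EV). Members were the genes annotated as protein coding whose symbol starts with RPL or RPS and a digit, together with RPLP0, RPLP1, RPLP2 and RPSA. Kinases named RPS6K and the pair of Y-linked RPS4 copies were left out. The rule found 89 of the 60504 genes in the table, and of its 19664 protein-coding genes. Of these, 46 encode standard proteins of the large subunit and 31 encode standard proteins of the small subunit. A further 8 are paralogs, 3 are readthrough genes that join a ribosomal protein gene to its neighbour, and RPS19BP1 encodes a binding partner of RPS19 and no ribosomal protein. FAU and RACK1 encode ribosomal proteins whose symbols the rule does not catch, and they are given apart.

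WM164 is a human melanoma cell line with a BRAF V600E mutation, which all 6 libraries carry. HDAC8 is a class I histone deacetylase, and the study asked how its expression changes the transcription of melanoma cells. Cells received either vector as a plasmid and were kept under hygromycin, so the comparison rests on 1 cell line and 1 selected population per vector. Each group had 3 libraries, which the labels number as biological replicates without saying whether they came from separate cultures. The p-values below therefore measure the spread between these libraries, which may be technical.

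A ribosome joins a small subunit, which reads the mRNA, to a large subunit, which forms the peptide bond. Each subunit is built in the nucleolus from ribosomal RNA and a fixed set of proteins, mostly with 1 copy of each, and surplus proteins are degraded. Most ribosomal protein mRNAs start with a C and a run of C and T, the terminal oligopyrimidine (TOP) motif, through which mTORC1 signalling and the protein LARP1 control their translation and stability. MYC raises their transcription in many tumours.

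The start sites of 5 genes the results turn on are shown for their TOP motif, as windows of 30 bases with 10 before the RefSeq start and 20 from it (GRCh38.p14), read 5′ to 3′ on the strand of the gene. Capitals mark the run of C and T that spans the start, where there is one. The windows lie at chr1:153990752-153990781 on the plus strand for RPS27, chr17:42998409-42998438 on the plus strand for RPL27, chr10:78033853-78033882 on the plus strand for RPS24, chr1:6199576-6199605 on the minus strand for RPL22 and chr3:170870176-170870205 on the minus strand for RPL22L1, a paralog of RPL22.
RPS27: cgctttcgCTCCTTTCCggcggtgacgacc
RPL27: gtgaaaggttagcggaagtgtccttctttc
RPS24: aatcgtggTTCTCTTTTCCTCCTTggctgt
RPL22: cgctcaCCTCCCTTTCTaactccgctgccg
RPL22L1: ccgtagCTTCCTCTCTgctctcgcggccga
RPS27, RPS24, RPL22 and RPL22L1 start with C inside such a run, while the RPL27 entry starts with A. A C at the start followed by 4 bases that are each C or T, searched on the strand of the gene only, was present in 43 of the 62 standard members with a RefSeq entry (69.4%) and in 1 of 5 paralogs. It was present in 4.07% of all 35116 RefSeq entries. Annotated starts can differ from the start used in these cells, so a missing match says only that these letters are not at this position.

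Total counts per library ran from 34741083 to 42041462, and 88 members were tested. RPL10L, a paralog of RPL10, was not, because its total count was below 10. The HDAC8 transcript itself did not check the labels, with a log2 fold change of 0.15 (SE 0.28 and DESeq2 adjusted p = 0.856), so directions are given for libraries labelled HDAC8 relative to libraries labelled EV. Of 8 markers of the melanocyte lineage, 7 reached at least 1 CPM (a count scaled to library size) throughout. Their summed level ran from 6628 to 8373 CPM in EV and from 3562 to 5092 in HDAC8. The defining markers EPCAM (epithelium), CDH5 (endothelium) and DCN (fibroblasts) were listed at 0 throughout. The summed epithelial markers ran from 1.97 to 3.38 in EV and from 0 to 1.959 in HDAC8, the endothelial ones from 0 to 1.54 and from 0 to 0.399. The summed leukocyte markers ran from 62.4 to 84.1 in EV and from 119 to 163 in HDAC8, with CD68 as the sole marker of 4 at 1 CPM or more throughout. The summed fibroblast markers ran from 59.1 to 75.4 and from 31.7 to 56.9, nearly all of it LUM. Library HDAC8 1 stood apart from HDAC8 2 and HDAC8 3 in many ribosomal protein genes, so counts of calls that its removal moves are also given without it. Mitochondrially encoded transcripts took 9.66% to 12.8% of counts in EV and 4.46% to 7.94% in HDAC8. The part of these shifts in the results on ribosomal protein genes was not tested.

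Ribosomal protein transcripts were lower more often than higher in the HDAC8 libraries. DESeq2 called 6 members lower and 0 higher at an adjusted p under 0.05 and a fold minimum of 0.58 on the log2 scale, the thresholds of the study, out of 86 with an adjusted p, or 9 lower and 0 higher without HDAC8 1. The same rule called 5.44% of all genes lower and 5.57% higher. No member was higher with the fold minimum by edgeR or limma-voom either, and 2 passed it at an unadjusted p under 0.05 (DESeq2). At an adjusted p under 0.05 alone, 17 members were lower and 1 was higher, where 6.38% of all genes were lower and 6.63% higher. Ribosomal protein genes are strongly expressed, which makes a call easier. Among protein-coding genes whose normalized counts averaged at least 1000, the adjusted p alone called 11.2% lower and 12.5% higher, against the same 17 and 1 of 80 members at that level. With the fold minimum, 515 of these 6380 genes were lower and 576 higher, against 6 and 0 of the 80 members. The share of members called lower with the fold minimum was thus near that of other strongly expressed genes. The count of 17 rested on single libraries, with 10 without EV 3, 11 without HDAC8 3 and 35 without HDAC8 1, and it was 28 with normalization within bins of GC content. Leaving out HDAC8 1 also raised the calls by adjusted p over all genes, from 1342 to 1757 lower and from 1394 to 1611 higher. The members called with the fold minimum were RPS27, RPS24 and RPS15A of the small subunit and RPL27, RPL23 and RPL29 of the large subunit.

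RPS27, a zinc-binding protein on the surface of the small subunit, had the largest fall among the called members (ENSG00000177954, GRCh38 chromosome 1, 153990762 to 153992155, plus strand). Normalized counts of RPS27 stood at 7805, 8175 and 9875 in EV and at 4103, 4297 and 4387 in HDAC8. The 3 HDAC8 values lay close together and far below every EV value. The log2 fold change was -1.02 (SE 0.14, 95% interval -1.30 to -0.73 and DESeq2 adjusted p = 1.59e-10), so that the HDAC8 mean was 0.495 times the EV mean.

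RPS24, a small subunit protein needed for the processing of its ribosomal RNA and mutated in some patients with Diamond-Blackfan anaemia (ENSG00000138326, chromosome 10, 78033760 to 78056813, plus strand), stood at 12244, 12395 and 14977 in EV and at 6348, 8217 and 7760 in HDAC8. Here HDAC8 1 was the lowest of all libraries, and the groups did not overlap. Its log2 fold change was -0.83 (SE 0.15 and DESeq2 adjusted p = 1.44e-06). RPS15A, a protein that binds the body of the small subunit RNA (ENSG00000134419, chromosome 16, 18781295 to 18790383, minus strand), had counts of 7831, 7195 and 7125 in EV and 4735, 4831 and 4984 in HDAC8. Both groups were tight, and the log2 fold change was -0.61 (SE 0.13 and DESeq2 adjusted p = 9.08e-05), or -0.56 without EV 1 and -0.57 with scaling by total counts, both below the fold minimum in size.

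In the large subunit, counts of RPL27 (ENSG00000131469, chromosome 17, 42998273 to 43002959, plus strand) were 3381, 4325 and 4089 in EV and 2863, 1895 and 1872 in HDAC8. HDAC8 1 lay between the other HDAC8 libraries and EV, and the groups still did not overlap. The log2 fold change of RPL27 was -0.83 (SE 0.20 and DESeq2 adjusted p = 0.000592). RPL23 (ENSG00000125691, chromosome 17, 38847860 to 38853764, minus strand), which lies on the face of the large subunit that meets the small one and also binds the p53 regulator MDM2, had counts of 7032, 8116 and 7745 against 5225, 4578 and 4212. RPL29, a small basic protein at the subunit surface (ENSG00000162244, chromosome 3, 51993522 to 51995895, minus strand), had 8918, 11463 and 9290 against 6494, 5910 and 6786. Neither gene overlapped between groups, with log2 fold changes of -0.71 (SE 0.14) for RPL23 and -0.63 (SE 0.15) for RPL29. Their DESeq2 adjusted p were 3.1e-05 and 0.000382. RPL29 kept its adjusted p but lost the fold minimum without EV 2 (-0.51) and without HDAC8 2 (-0.57).

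**Figure D1:**
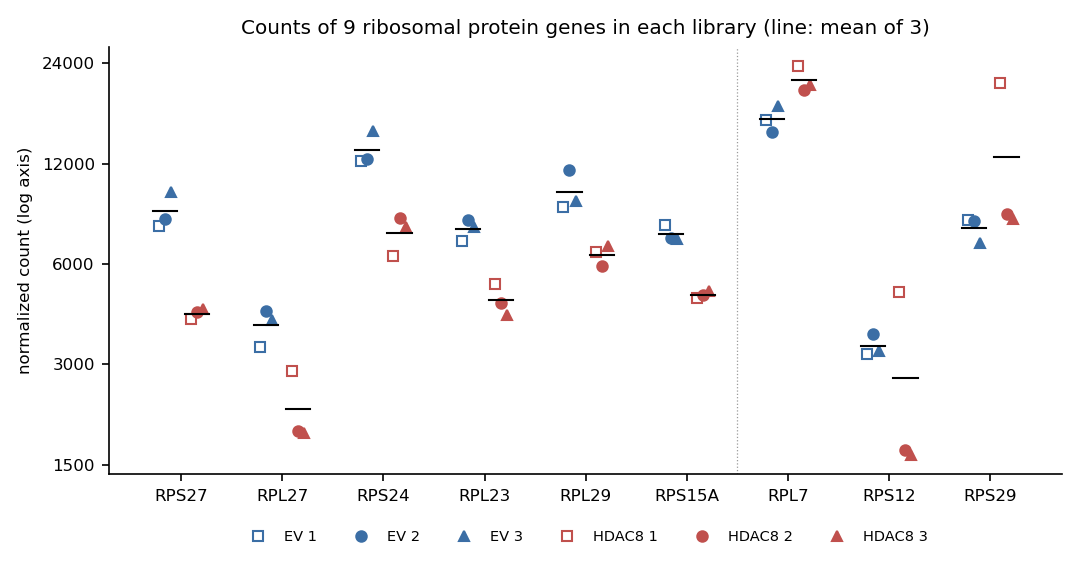
Normalized count (log axis) of 9 ribosomal protein genes in each of the 6 libraries, EV in blue and HDAC8 in red, with a symbol for each replicate number and a black line at the mean of 3. The 6 genes left of the dotted line were called lower with the fold minimum and their groups do not overlap, while in RPS12 and RPS29 the HDAC8 1 library lies far above HDAC8 2 and HDAC8 3.

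Another 11 members passed the adjusted p without the fold minimum, with log2 fold changes from -0.57 (RPL15) to -0.39 (RPS3A). All but RPL22 and RPL5, which makes 9, were named after their values were seen. Those of the large subunit were RPL15, RPL22, RPL32, RPL17, RPL12, RPL14, RPL27A and RPL5, and those of the small subunit were RPS13, RPS2 and RPS3A. RPL12 forms the base of the stalk that recruits translation factors, and RPL5 enters the ribosome with RPL11 and the smallest ribosomal RNA. RPL22 went from 8428, 7699 and 9187 in EV to 6507, 5601 and 5151 in HDAC8 (log2 fold change -0.55, SE 0.15, DESeq2 adjusted p = 0.00266). RPL5 went from 17358, 19377 and 20154 to 14743, 14137 and 13592 (log2 fold change -0.42, SE 0.12, DESeq2 adjusted p = 0.0085). Without EV 3 the adjusted p was 0.0674 for RPL22 and 0.124 for RPL5, and without HDAC8 3 it was 0.0611 and 0.1. RPL5 also lost its call by edgeR (adjusted p = 0.0576). Of the 11 genes, RPL15, RPL32 and RPS13 kept an adjusted p under 0.05 whichever library was left out. In all 17 lower members the highest HDAC8 library lay below the lowest EV library, which a call from these same counts favours.

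RPL7, which contacts RPL5 and the RNA it binds in the assembled large subunit, was the single member called higher. Its counts were 16241, 14944 and 17843 in EV and 23452, 19879 and 20674 in HDAC8. The groups did not overlap, and the log2 fold change was 0.38 (SE 0.13 and DESeq2 adjusted p = 0.0315). The call was lost with edgeR (adjusted p = 0.102), limma-voom (0.0614), scaling by totals without mitochondrial genes (0.0574), and without EV 1 (0.165), EV 2 (0.146), EV 3 (0.0617) or HDAC8 3 (0.106).

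Counting without a model, 31 of 88 members had every HDAC8 library below every EV library and 9 had the reverse, where all genes tested gave 12.7% and 11.3%. Among protein-coding genes with a mean of at least 1000 the shares were 21.1% and 20.1%, against 31 and 7 of 80 members. The median log2 fold change was -0.18 over the 88 members, with 61 below 0, and -0.0001 over all 26162 genes tested. It was -0.25 for the large subunit, where 11 of 46 members were called lower by adjusted p, and -0.10 for the small subunit, where 6 of 31 were. Without HDAC8 1 these counts were 23 and 12, at medians of -0.32 and -0.22, while calls over all genes rose as well, as given above. Members varied around these medians far more than the subunits differed, from -1.02 to 0.70 among the 77 standard genes. The members' summed counts took 2.43%, 2.64% and 2.41% of all counts in EV and 2.71%, 2.12% and 2.15% in HDAC8. With means of 2.49% ± 0.129 and 2.33% ± 0.334 (SD, n = 3), this share overlapped between groups. Without mitochondrially encoded transcripts in the total it was 2.80% ± 0.131 against 2.49% ± 0.303, and again overlapped.

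**Figure D2:**
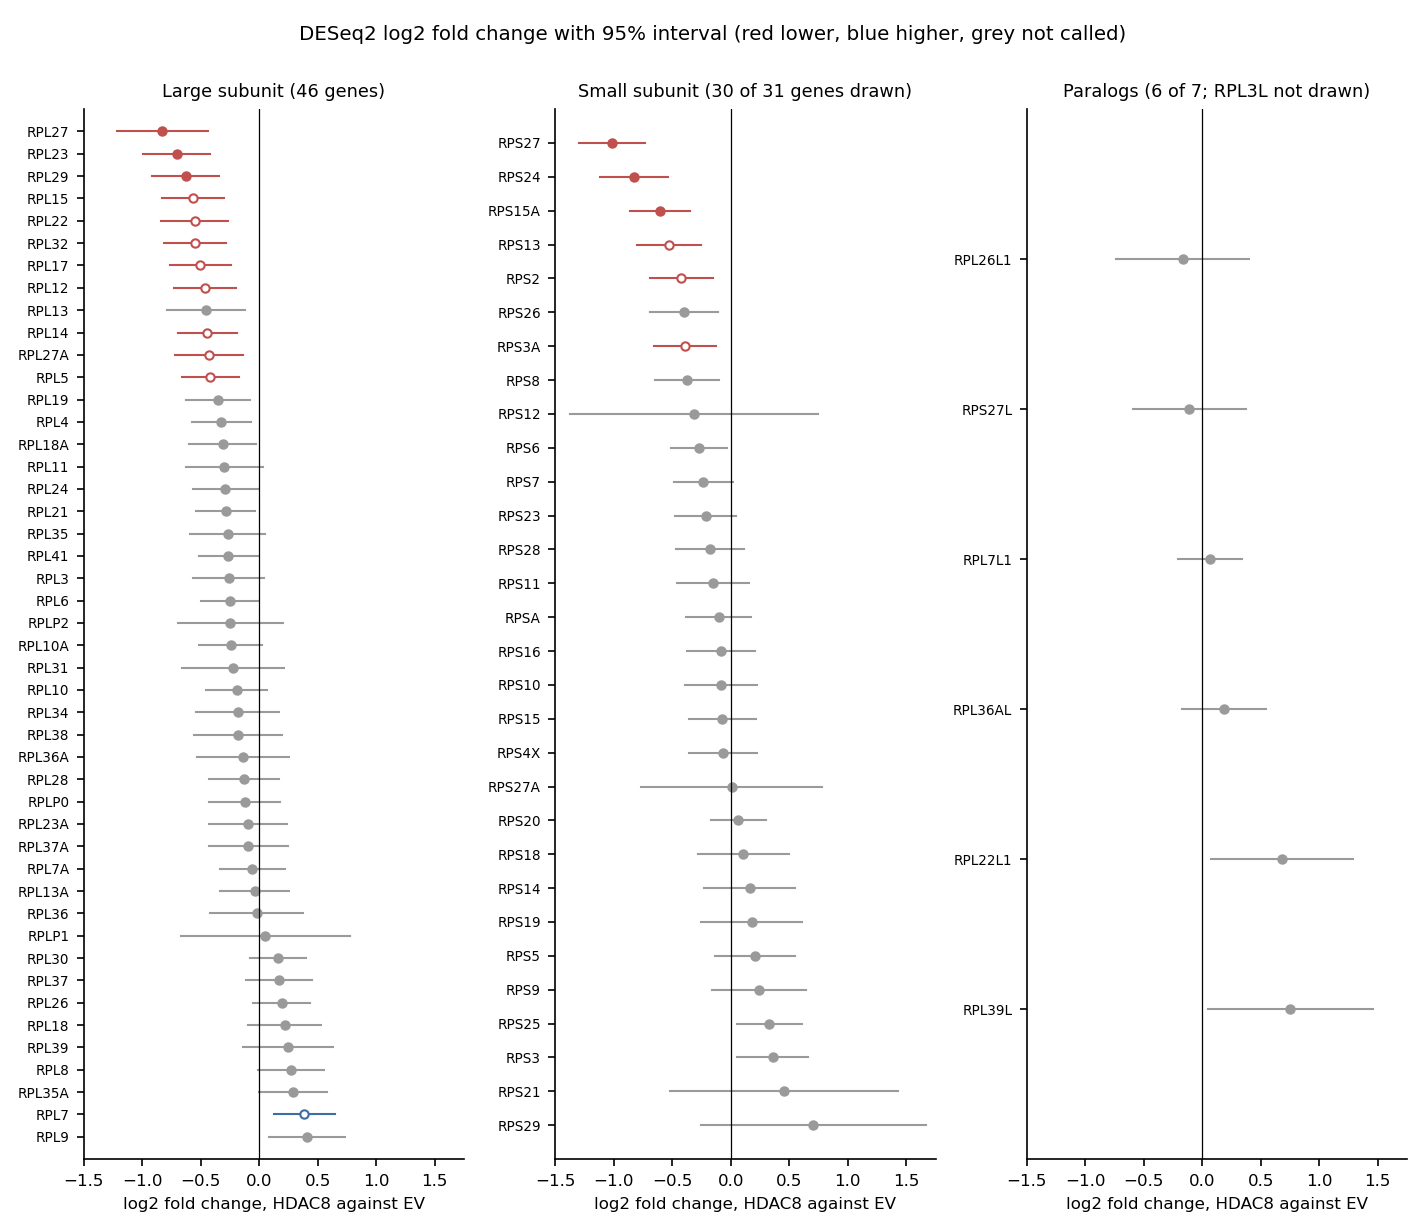
DESeq2 log2 fold change of HDAC8 against EV for the standard genes of the large subunit (46) and small subunit (31, of which 1 is not drawn) and for 6 paralogs, with 95% intervals. Red genes were called lower and blue higher at an adjusted p under 0.05, filled where the fold minimum was passed as well; the widest intervals, those of RPS29, RPS12 and RPS21, belong to genes in which HDAC8 1 stood apart.

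The 3 HDAC8 libraries did not carry the fall alike. Set against the EV mean of each gene, the median of the 77 standard members on the log2 scale was -0.10, 0.10 and -0.01 in EV 1, EV 2 and EV 3, -0.0007 in HDAC8 1, -0.29 in HDAC8 2 and -0.30 in HDAC8 3. HDAC8 1 lay above the mean of the other HDAC8 libraries in 58 of 77 genes, by at least 0.58 on the log2 scale in 17 of them, and was never that far below. It was the highest of all 6 libraries in 27. The median coefficient of variation was 9.71% over the EV libraries and 11.0% over the HDAC8 libraries, and 3.63% over HDAC8 2 and HDAC8 3 alone. EV 2 was the highest EV library in 46 of the 77 genes.

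**Figure D3:**
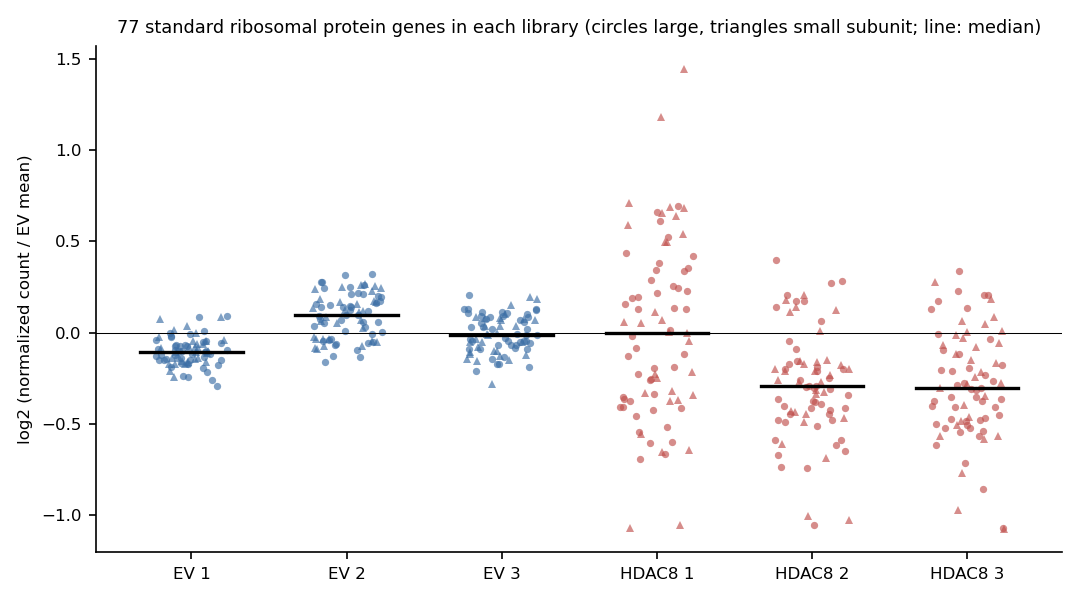
Log2 ratio of each standard ribosomal protein gene to its EV mean in the 6 libraries, with circles for the large and triangles for the small subunit and a line at the median of 77 genes. The EV libraries lie close to 0 in part because they form the reference; HDAC8 2 and HDAC8 3 have medians of -0.29 and -0.30, and HDAC8 1 is spread widely around -0.0007.

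The 4 genes in which HDAC8 1 lay furthest above the other HDAC8 libraries were of the small subunit, namely RPS12, RPS29, RPS21 and RPS27A. Of those described here, RPS12 and RPL31 were chosen after their values were seen. RPS12 had counts of 3220, 3689 and 3281 in EV and 4937, 1666 and 1608 in HDAC8. HDAC8 1 was thus the highest library of all, and the other HDAC8 libraries the lowest. Its log2 fold change was -0.31 (SE 0.54 and DESeq2 adjusted p = 0.837) with all libraries and -1.05 without HDAC8 1 (adjusted p = 4.73e-11).

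RPS29, a short zinc-binding protein of the small subunit head, showed the opposite picture, with 8104, 8056 and 6946 in EV and 20987, 8490 and 8169 in HDAC8. Its groups did not overlap, but a single library made the difference. The log2 fold change of 0.70 (SE 0.49 and DESeq2 adjusted p = 0.429) fell to 0.11 without HDAC8 1 (adjusted p = 0.63). RPS21 counts were 3407, 4141 and 2846 in EV and 7862, 3066 and 3308 in HDAC8 (log2 fold change 0.45, SE 0.50, DESeq2 adjusted p = 0.691). Without HDAC8 1, its log2 fold change was -0.12.

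RPS27A, made as a fusion with ubiquitin, had counts of 5488, 5744 and 6590 in EV and 9526, 4353 and 4012 in HDAC8. Its log2 fold change went from 0.01 (DESeq2 adjusted p = 0.997) to -0.51 (adjusted p = 0.00107) without HDAC8 1. The stalk proteins RPLP0, RPLP1 and RPLP2, which recruit elongation factors, were not called with all libraries. RPLP1 had 12568, 16507 and 11768 in EV and 21486, 10375 and 10492 in HDAC8, and went from 0.05 (DESeq2 adjusted p = 0.97) to -0.39 (adjusted p = 0.0303). RPLP2 went from -0.25 (DESeq2 adjusted p = 0.607) to -0.58 (adjusted p = 0.00987), while RPLP0 went from -0.13 (adjusted p = 0.74) to -0.28 (adjusted p = 0.0804). RPL31 likewise went from -0.22 (DESeq2 adjusted p = 0.639) to -0.62 (adjusted p = 5.93e-06). Without HDAC8 1 the members lower by adjusted p numbered 35 and the member higher 1, and the median over members was -0.27 in a fit whose median over all genes was -0.07. Of 6380 protein-coding genes with a mean of at least 1000, that fit called 884 lower and 1103 higher. All libraries together gave 713 and 797.

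Over 6295 other protein-coding genes with a mean of at least 1000, the deviation of HDAC8 1 from HDAC8 2 and 3 ran with the GC content of the transcript (r = 0.68, rho = 0.71). Over the 77 standard members the same values were near 0 for GC content (r = 0.06, rho = 0.08) and for transcript length (r = -0.08, rho = -0.08). These are descriptions across genes of the same libraries, which share depth and preparation, and the origin of the deviation was not tested.

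Mutations in several ribosomal protein genes cause Diamond-Blackfan anaemia, a failure of red cell production. Among the members described above that have been reported in patients, RPS24, RPL5, RPS27, RPL27, RPS15A and RPL15 were lower by adjusted p. Others named for the disease did not pass, with log2 fold changes of -0.40 for RPS26 (DESeq2 adjusted p = 0.0505), -0.30 for RPL11 (0.273), -0.24 for RPS7 (0.255), -0.08 for RPS10 (0.858), 0.18 for RPS19 (0.739) and 0.29 for RPL35A (0.225). RPS26 lay below EV in every HDAC8 library, with 4584, 5326 and 4878 against 3355, 3960 and 3871. RPL35A lay above it, with 3824, 3780 and 4252 against 5348, 4777 and 4336. Without HDAC8 1, RPS26 and RPL11 passed as lower, with DESeq2 adjusted p of 0.0493 and 0.00314.

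RPS6, the substrate of the S6 kinases, had counts of 13536, 13599 and 14604 in EV and 10730, 11844 and 11998 in HDAC8. Its groups did not overlap, at a log2 fold change of -0.27 (SE 0.12 and DESeq2 adjusted p = 0.142). RPS3, which lines the mRNA entry of the small subunit and also acts in DNA repair, had 30742, 37324 and 30698 in EV and 51767, 37251 and 37434 in HDAC8 (log2 fold change 0.36, SE 0.16, DESeq2 adjusted p = 0.121). RPSA, known outside the ribosome as the laminin receptor, stood at -0.10 (SE 0.14 and DESeq2 adjusted p = 0.773). Outside the symbol rule, RACK1 gave a log2 fold change of -0.10 (SE 0.13 and DESeq2 adjusted p = 0.758) and FAU one of -0.01 (SE 0.18 and adjusted p = 0.984).

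Per kilobase of transcript, the highest standard member was RPL41, which encodes the shortest ribosomal protein, at 45444 normalized counts per kb. The lowest was RPL14 at 1131, with a median of 13074 over the 77 genes. The RPL14 value rests on an annotated transcript of 7072 bases, where the median transcript had 704. Per kilobase of coding sequence RPL14 stood at 12397 and the lowest was RPL9 at 7150, a level that leaves out pseudogenes holding 93.6 counts per 100 of its own; RPL27 followed at 7526. Among all members with a mean of at least 50, the readthrough gene RPL17-C18orf32 was lowest, at 42.6 normalized counts per kb of transcript. The log2 fold change showed little relation to the mean level (r = 0.07, rho = 0.07), transcript length (r = -0.03, rho = -0.05) or GC content (r = 0.08, rho = 0.07) across the 77 genes, given as a description.

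Some paralogs can replace their standard protein in certain tissues or ribosomes. All were compared as their level per 100 of the standard gene, both as normalized counts per kb. RPL22L1, which takes the place of RPL22 and is regulated by it, had counts of 349, 382 and 317 in EV and 605, 675 and 403 in HDAC8 (log2 fold change 0.68, SE 0.31, DESeq2 adjusted p = 0.141). RPL22 itself was lower, as given above. RPL22L1 therefore came to 4.49, 5.38 and 3.74 per 100 of RPL22 in EV and to 10.1, 13.1 and 8.48 in HDAC8, which do not overlap. The mean was 4.54 ± 0.818 in EV and 10.5 ± 2.32 in HDAC8 (SD, n = 3), which are in a ratio of 2.32.

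RPS27L came to 0.666, 0.466 and 0.456 per 100 of RPS27 in EV and to 1.07, 1.07 and 0.804 in HDAC8. Here the paralog itself was at -0.11 (SE 0.25 and DESeq2 adjusted p = 0.887), and the ratio moved with RPS27. The annotated RPS27L transcript is 6110 bases long against 352 for RPS27, which sets the size of this ratio but not the comparison of the groups. RPL36AL came to 175, 220 and 185 per 100 of RPL36A in EV and to 237, 253 and 237 in HDAC8. Each gene of this pair overlapped between groups and was not called. The log2 fold changes were 0.19 for RPL36AL (DESeq2 adjusted p = 0.635) and -0.14 for RPL36A (adjusted p = 0.786).

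In these 3 pairs the groups did not overlap and HDAC8 was higher. Over all genes tested, 11.3% were higher without overlap and 12.7% lower, but no such share was taken for ratios of genes. RPL7L1 went the other way, with 9.06, 10.1 and 8.73 per 100 of RPL7 in EV and 6.11, 8.25 and 8.15 in HDAC8. The pairs RPL26L1 with RPL26, RPL39L with RPL39 and RPL3L with RPL3 overlapped. RPL39L had counts of 202, 271 and 182 in EV and 315, 442 and 346 in HDAC8 (log2 fold change 0.75, SE 0.36, DESeq2 adjusted p = 0.172). RPL3L, a muscle form, was at most at 9.85 normalized counts and had no adjusted p. With 3 libraries a group, an exact permutation test of a ratio cannot give a two-sided p below 0.1, so none is printed.

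**Figure D4:**
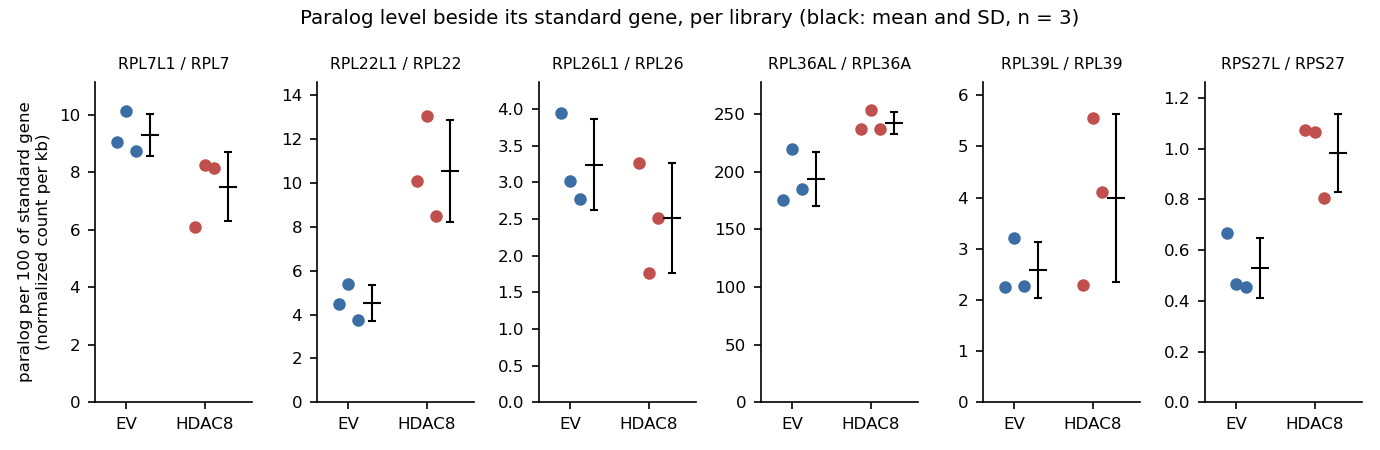
Level of 6 paralogs per 100 of the standard gene (normalized count per kb) in each library, EV in blue and HDAC8 in red, with the mean and SD of 3 libraries in black and axes from 0. RPL22L1 per RPL22, RPS27L per RPS27 and RPL36AL per RPL36A are higher in every HDAC8 library, RPL7L1 per RPL7 is lower, and the others overlap.

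Of the readthrough genes, none passed. RPL17-C18orf32 had 44.04, 144.8 and 76.84 in EV and 6.84, 0 and 95.8 in HDAC8. RPS10-NUDT3 had 206, 147 and 0 against 190, 287 and 164, and RPL36A-HNRNPH2 was at or below 9.22 throughout. These loci share exons with the standard gene, so how the estimated counts were split between them is uncertain. RPS19BP1 stood at 0.19 (SE 0.27 and DESeq2 adjusted p = 0.785).

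Ribosomal protein genes have many processed pseudogenes, which can draw reads from the gene. The table named 1144 pseudogenes of members, 438 of them with counts. The median member had 0.313 pseudogene counts per 100 of its own, and 6 members had more than 5. The largest shares were 93.6 per 100 for RPL9 and 89.6 for RPL23A. With those counts added, RPL23A went from a log2 fold change of -0.10 (SE 0.17) to -0.36 (DESeq2 adjusted p = 0.037), so its value depends on how reads were shared. RPL9 went from 0.41 (DESeq2 adjusted p = 0.0883) to 0.26 (adjusted p = 0.248).

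Standard members lie on 21 chromosomes, and their change ran with that of the genes around them. For each member, the median log2 fold change was taken over the other genes within 5 Mb with a mean of at least 50, which were 11 to 215 genes. Across the 77 standard members the log2 fold change of the gene and that median had r = 0.66 and rho = 0.68. The relation was present in HDAC8 2 (r = 0.72) and HDAC8 3 (r = 0.74) taken singly over the EV mean, and weaker in HDAC8 1 (r = 0.31). Gene and neighbours come from the same libraries and share depth and, in part, base composition, so these values describe and do not test. Why neighbouring genes changed alike was not tested.

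The sign of gene and neighbours was the same in 49 of the 77 standard members. Of the 21 standard members above 0, 17 had neighbours above 0, but of the 56 below 0 only 32 had neighbours below 0, among them 15 of the 17 called lower. On the short arm of chromosome 3, RPL32, RPL15, RPL14 and RPL29 were all lower, with neighbours from -0.42 to -0.10, and RPSA stood at -0.10 with neighbours at -0.11. On the long arm RPL24 went against its neighbours, at -0.29 where they stood at 0.10. Further along that arm RPL35A stood at 0.29 with neighbours at 0.38, and the paralogs RPL22L1 and RPL39L at 0.68 and 0.75 with neighbours at 0.27 and 0.42. On chromosome 11, RPLP2 (-0.25), RPL27A (-0.43) and RPS13 (-0.53) had neighbours at -0.19, -0.30 and -0.35, and RPS3 (0.36) and RPS25 (0.33) had neighbours at 0.32 and 0.33. On chromosome 8, which carries RPL7, all 4 members were above 0, from 0.06 to 0.38, and their neighbours ran from 0.16 to 0.49.

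Members also differed from their neighbours. The median of the neighbour medians was 0.02, and 60 of the 77 standard members lay below their own, by a median of 0.22 on the log2 scale. All 17 lower members did, among them RPS27 (-1.02 against -0.23), RPL27 (-0.83 against -0.20) and RPL23 (-0.71 against -0.05). For these 17 the call nearly fixed that outcome, since they were picked for low values and neighbour medians ran only from -0.42 to 0.55. On chromosome 19, with 12 standard members, none was called and their median was -0.06, where the neighbour medians ran from 0.20 to 0.32.

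**Figure D5:**
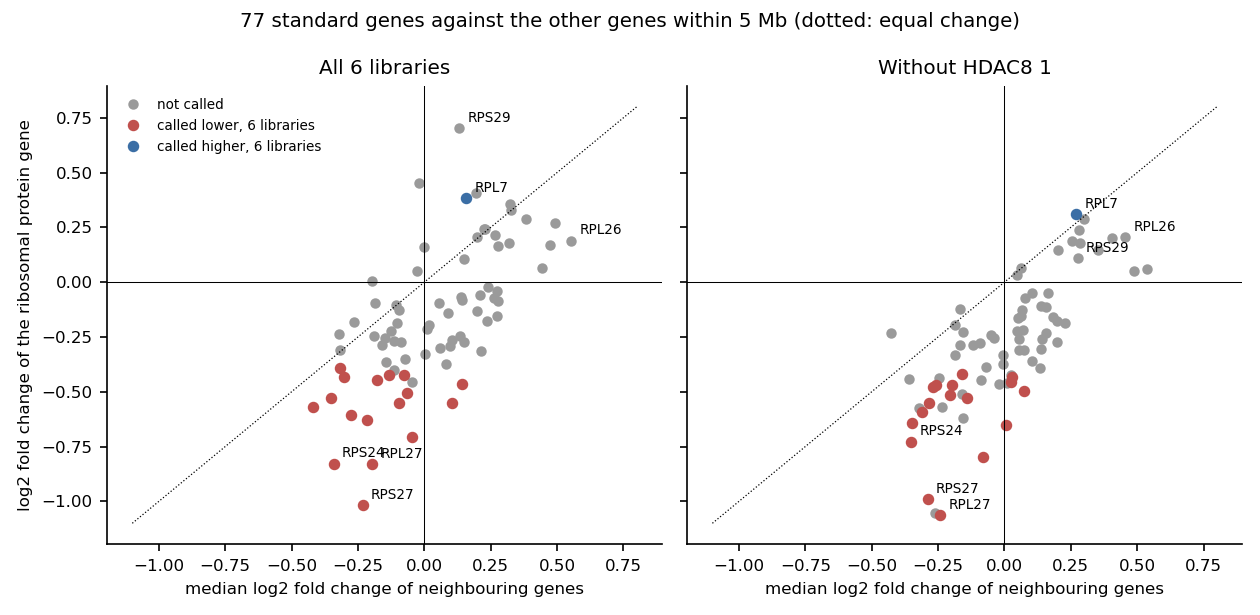
Log2 fold change of each of the 77 standard ribosomal protein genes (vertical axis) against the median log2 fold change of the other genes within 5 Mb (horizontal axis), with all libraries at left and without HDAC8 1 at right. Both rise together (r = 0.66 and 0.76), and 60 of the 77 points at left lie below the dotted line of equal change.

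Members with and without a match to the TOP start both had medians below 0. The 43 standard genes with the start described above had a median log2 fold change of -0.14 and the 19 without a match -0.25, and 9 of the 13 lower members with an entry had it. Some unmatched entries start far from the GENCODE start, as RPL4 does at 19677 bases. The split therefore does not separate mRNAs with and without the motif. Other TOP mRNAs moved in both directions, with 2 of 22 higher and 3 lower by adjusted p, or 4 and 4 without HDAC8 1. With all libraries these shares lie near those of strongly expressed genes given above (12.5% higher and 11.2% lower). Without HDAC8 1, 1103 of the 6380 strongly expressed genes were higher and 884 lower. TPT1, a growth-related protein, changed by -0.69 on the log2 scale (SE 0.15 and DESeq2 adjusted p = 5.55e-05), NAP1L1, a histone chaperone, changed by -0.59 (SE 0.17, adjusted p = 0.00786), and VIM, the filament protein vimentin, changed by 0.63 (SE 0.11, adjusted p = 1.67e-06).

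Ribosomes are built and used by other factors, which were counted as lists. The adjusted p called 6.63% of all genes higher and 6.38% lower, and 12.5% and 11.2% of protein-coding genes with a mean of at least 1000. Without HDAC8 1 it called 1103 of those 6380 strongly expressed genes higher and 884 lower. Of 40 genes of ribosome biogenesis, 9 were higher and 0 lower by adjusted p, and 8 were higher with the fold minimum, at a median of 0.20. Without HDAC8 1 the counts by adjusted p were 11 and 1. By edgeR 8 were higher and 0 lower, by limma-voom 9 and 0, and 1 was lower at an unadjusted p under 0.05 (DESeq2). TSR1, which acts in the maturation of the small subunit, went from 4303 ± 243 to 7585 ± 871 normalized counts (SD, n = 3), which is 0.82 on the log2 scale (SE 0.14 and DESeq2 adjusted p = 6.79e-07). PES1 and BOP1, partners in large subunit maturation, changed by 0.73 (SE 0.17, adjusted p = 0.000352) and 0.88 (SE 0.23, adjusted p = 0.00221). Among 11 elongation factors 3 were higher and 0 lower, namely EEF1A2, EIF5A and EEF1G with log2 fold changes of 1.11, 0.67 and 0.59, and edgeR and limma-voom also gave 3 and 0, with 0 lower at an unadjusted p under 0.05. Of 38 initiation factors 4 were higher and 4 lower (8 and 5 without HDAC8 1), near the shares of strongly expressed genes, with EIF4G1, the scaffold of the cap complex, at 0.63 (DESeq2 adjusted p = 0.00016) and EIF2S2 at -0.85 (adjusted p = 6.39e-07).

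Of 14 listed snoRNA host RNAs 12 were tested, and 3 were higher and 0 lower (2 and 0 by edgeR, limma-voom or without HDAC8 1, and 0 lower at an unadjusted p under 0.05), with SNHG1 at 0.92 (SE 0.14 and DESeq2 adjusted p = 8.92e-10). Of 8 termination and recycling factors 1 was higher, PELO, which rescues stalled ribosomes, at 0.81 (adjusted p = 0.011). Of 15 tested genes of RNA polymerase I 1 was lower, TAF1D at -0.61 (adjusted p = 0.0173), which edgeR did not call. Of the 14 regulators in the list of mTORC1, MYC and LARP1, 1 was lower and 0 higher (3 higher without HDAC8 1, 0 by edgeR or limma-voom, 2 at an unadjusted p under 0.05), the mTOR partner MLST8 at -0.75 (SE 0.23, adjusted p = 0.0148). The transcripts of MYC, LARP1 and MTOR did not pass. MYC stood at -0.01 (SE 0.16, DESeq2 adjusted p = 0.987), LARP1 at 0.12 (SE 0.12, adjusted p = 0.68) and MTOR at 0.21 (SE 0.14, adjusted p = 0.413). Transcript levels do not measure the activity of these regulators, and their part in the results was not tested. The mitochondrial ribosome, a separate set of 78 genes, had 3 higher and 2 lower (4 and 2 without HDAC8 1). Its median of -0.08 lay between that of the cytosolic members and that of all genes. Of the 78 genes 51 were below 0 (65.4%), against 69.3% of the cytosolic members and 50% of all genes tested. Its groups did not overlap in 12 lower and 5 higher genes, where all genes tested gave 12.7% and 11.3%.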

How the data were processed

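RNA-seq libraries of WM164 cells with an empty or an HDAC8 vector (3 each) were compared, grouped by the labels. Reads were paired, and the authors used Trimmomatic, STAR and RSEM in that order and deposited expected counts per gene, unscaled; build, annotation release and strand are not given in the sources used here. Expected counts share reads between similar genes. Counts were rounded and tested with DESeq2 1.42.0 in R 4.3.3 (Wald test, two-sided, total count of at least 10, Benjamini-Hochberg over all genes); 26162 genes were tested and 21021 had an adjusted p. Normalized counts are divided by DESeq2 size factors. Alternatives used edgeR 4.0.16 and limma 3.58.1 (closing section). Fits were tested on simulated data, where DESeq2 made more false calls than edgeR or limma-voom. GENCODE release 44 (GRCh38) gave positions and lengths, matched on Ensembl identifier for 89 of 89 members, with the shortest transcript of the canonical coding length; start sites are from RefSeq (GRCh38.p14). Members, lists and paralog pairs were chosen with earlier results of these data known. Named were members called with the fold minimum, the 5 largest rises and falls with a mean of at least 50, the extremes per kb, paralog pairs, stalk and Diamond-Blackfan genes, RPSA, RPS3, RPS6, RPS27A, readthrough genes, and list genes with the largest changes. Some named genes are not reported here.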

Additional observations from a re-analysis of the deposited data

How the results depend on the processing

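Each fit was repeated under 16 other settings chosen at the outset and 2 more chosen after seeing the data, namely normalization within 20 bins of transcript length or GC content. RPS27, RPL27, RPS24 and RPL23 stayed past both thresholds in all 18, and RPS15A and RPL29 in 16 of 18, while their adjusted p stayed under 0.05 in all 18. RPL15, RPL32 and RPS13 kept their adjusted p in all 18. RPL27A kept it in 9, RPL7 and RPS3A in 10, RPS2 in 12 and RPL5 in 14. Among 33 named members without a call, 11 changed sign in at least 1 alternative, RPLP1, RPS19, RPS21 and RPS27A among them. The median over members ran from -0.27 to -0.09. Scaling by total counts moved the median of all genes to 0.04 and left 14 members lower, and limma-voom gave 15 and edgeR 13.

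The count of members lower by adjusted p was 17. It became 28 with GC bins, and ran from 10 without EV 3 (11 without HDAC8 3) to 35 without HDAC8 1. The count of members higher was 1. It became 0 with edgeR, limma-voom and totals without mitochondrial genes, 2 when every library had to reach 10 counts, 3 with length bins and 4 with GC bins, and ran from 0 to 1 without 1 library. With the fold minimum, 0 members were higher; 1 was, RPL22L1, when 10 counts were asked of every library, and from 0 to 1 were without 1 library.

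The deviations of EV and HDAC8 libraries with the same replicate number correlated at -0.29, -0.49 and 0.28 over 6520 genes. Libraries with different numbers were not set beside them, so these values cannot settle whether the numbers pair the libraries. With the number as a replicate block, 12 members were lower and 0 higher by adjusted p, and 6 lower and 0 higher with the fold minimum. RPL5 and RPL7 were not called in that fit (adjusted p = 0.0627 and 0.0926). Over all genes, higher genes made up 50.6% of the calls by adjusted p, 57.5% without EV 2 and 44.6% without HDAC8 1. Depth was high for nearly all members; 3 counts, the floor for a gene without reads, came to 2.57 to 3.27 normalized counts and cover counting error only, which concerns RPL3L, RPL10L and the readthrough genes.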
